A study of Mus musculus with 6 samples.

Results

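The genes described here are 58 mouse genes of DNA replication and mitosis, out of 47643 gene identifiers in each count table. They were taken by symbol from a list of S-phase and mitosis genes, by function, and all 58 had a row. They were divided by function into 29 replication genes and 29 mitosis genes, so that the 2 groups could be set side by side. The samples were dorsal root ganglia of CD-1 mice at embryonic day 13, treated with a lentivirus. The 3 shControl libraries came from cells given a control hairpin and the 3 shUHRF1 libraries from cells given a hairpin against Uhrf1, which codes for a chromatin protein that reads DNA methylation on newly copied DNA. The design asks what the knockdown does to transcription in uninjured neurons, and both groups carry a lentivirus. Libraries carry numbers 1 to 3 within a group, and nothing in the labels says that separate cultures were used. Each p-value speaks only of how far these libraries differ from each other, a spread that may be technical. How many embryos gave each library is not stated in the labels either.

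Dividing cells copy their DNA in S phase and separate the copies in mitosis, and the genes for each task are switched on in turn. E2F transcription factors switch on replication genes such as the Mcm helicase subunits late in G1. The DREAM and MuvB complexes, with FoxM1, act on mitosis genes through a short promoter element, the cell cycle homology region. Sensory neurons of the dorsal root ganglion have left the cell cycle, while the progenitors, glia and connective tissue cells around them still divide.

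The promoters are shown first because the 2 groups of genes differ in sequence. For 50 of the 58 genes, 25 in each group, RefSeq windows on GRCm38.p6 were used, which run from 250 bases before to 50 bases after the start of transcription. Both strands were searched for TTTGAA (the core of the cell cycle homology region), for TTTGGCGC and TTTCGCGC (E2F sites) and for CCAAT (the NF-Y box), and overlapping matches were counted separately. TTTGAA was found in 17 of 25 mitosis windows (68.0%) and in 4 of 25 replication windows (16%), against 16.5% of the windows of all 19389 genes. Within 50 bases of the start it was found in 16 mitosis windows (64.0%), in 2 replication windows (8.0%) and in 4.24% of all windows. An E2F match was found in 8 replication windows (32.0%), those of E2f2, Cdt1, Mcm3, Mcm5, Mcm6, Mcm7, Pola1 and Rfc3. It was found in 1 mitosis window (4.0%), that of Cdk1, and in 0.995% of all windows. CCAAT was in 64.0% of replication windows, 76.0% of mitosis windows and 38.3% of all windows. The 5 windows below belong to genes that the results turn on, 3 for mitosis and 2 for the Mcm helicase. Letters are written 5′ to 3′ on the strand of the gene, and capitals mark the matches on either strand.
Aurka: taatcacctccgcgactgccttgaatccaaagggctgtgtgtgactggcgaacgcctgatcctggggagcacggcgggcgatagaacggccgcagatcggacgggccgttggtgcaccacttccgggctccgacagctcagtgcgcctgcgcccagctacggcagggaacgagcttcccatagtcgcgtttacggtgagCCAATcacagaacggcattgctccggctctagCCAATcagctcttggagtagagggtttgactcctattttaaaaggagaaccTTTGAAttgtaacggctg
Prc1: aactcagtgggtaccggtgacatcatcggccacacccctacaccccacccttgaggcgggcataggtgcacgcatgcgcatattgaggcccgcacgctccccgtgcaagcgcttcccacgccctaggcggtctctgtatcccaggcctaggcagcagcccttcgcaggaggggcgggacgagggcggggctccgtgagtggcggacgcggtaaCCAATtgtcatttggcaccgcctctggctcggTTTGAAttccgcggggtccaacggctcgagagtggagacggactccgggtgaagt
Ccnb2: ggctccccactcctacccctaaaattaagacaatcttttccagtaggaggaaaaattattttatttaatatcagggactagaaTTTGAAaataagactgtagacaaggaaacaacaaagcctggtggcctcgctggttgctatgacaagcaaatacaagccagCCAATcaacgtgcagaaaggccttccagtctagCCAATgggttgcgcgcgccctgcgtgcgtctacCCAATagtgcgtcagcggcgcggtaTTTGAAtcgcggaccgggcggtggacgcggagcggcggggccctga
Mcm6: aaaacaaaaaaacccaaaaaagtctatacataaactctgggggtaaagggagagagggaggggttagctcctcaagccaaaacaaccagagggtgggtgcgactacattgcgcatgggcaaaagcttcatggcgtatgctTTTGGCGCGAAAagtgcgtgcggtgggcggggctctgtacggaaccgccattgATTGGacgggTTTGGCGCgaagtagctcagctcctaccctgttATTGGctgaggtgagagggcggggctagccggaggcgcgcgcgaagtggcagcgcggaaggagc
Mcm7: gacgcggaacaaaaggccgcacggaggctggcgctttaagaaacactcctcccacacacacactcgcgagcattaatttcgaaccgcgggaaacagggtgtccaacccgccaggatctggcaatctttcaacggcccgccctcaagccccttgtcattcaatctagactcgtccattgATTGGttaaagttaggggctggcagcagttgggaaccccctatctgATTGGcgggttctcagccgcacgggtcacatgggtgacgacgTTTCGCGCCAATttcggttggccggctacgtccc
The Aurka window is chr2:172370521-172370820 on the minus strand, and it holds TTTGAA at position 33 and CCAAT matches at -51 and -19. In all windows the start base is counted as 1, the base before it as -1, and there is no 0. The Prc1 window is chr7:80294201-80294500 on the plus strand, with TTTGAA at -5 and CCAAT at -37. The Ccnb2 window is chr9:70421505-70421804 on the minus strand, with TTTGAA at -167 and 5 and CCAAT at -87, -54 and -21. The Mcm6 window is chr1:128359656-128359955 on the minus strand, with E2F matches at -110, -106 and -47, the first 2 overlapping, and CCAAT matches at -57 and -14. The Mcm7 window is chr5:138171834-138172133 on the minus strand, with an E2F match at 17 and CCAAT matches at -72, -26 and 24. The window of Mcm2 held TTTGAA at -70 and CCAAT at -175, and the windows of E2f1 and Hells held none of the letters searched. The E2f1 window (chr2:154569377-154569676, minus strand), 1 of the 25 replication windows, lies inside the annotated gene, whose 5′ end is at 154569892. Bases before that end were not searched, so the E2f1 promoter cannot be said to lack matches. The Mcm7 window likewise lies inside its annotated gene, whose 5′ end is at 138172422. A match describes the sequence and was not tested as a binding site.

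**Figure D1:**
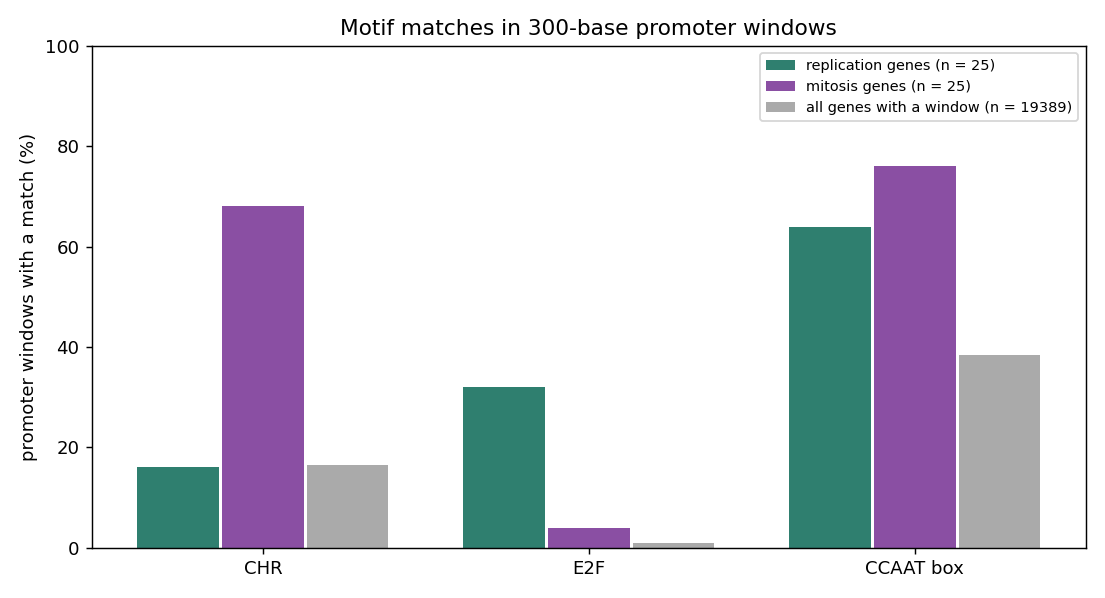
Percent of promoter windows (vertical axis) that hold each motif searched, for 25 replication genes, 25 mitosis genes and all 19389 genes with a window. CHR is TTTGAA, the core of the cell cycle homology region, which stands out among mitosis genes at 68.0% and the E2F letters among replication genes at 32.0%.

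Each library held 15599776 to 22382813 reads in genes. Uhrf1 itself had 8, 6 and 5 reads in the shControl libraries and 2, 1 and 5 in the shUHRF1 libraries, or 0.364 ± 0.115 and 0.130 ± 0.0981 counts per 1000000 scaled reads (CPM; mean ± SD, n = 3). The 2-sided exact permutation p was 0.2, and the smallest that 3 against 3 libraries can give is 0.1, so at this depth the knockdown was not shown at the RNA level. Neuron markers were abundant in all 6 libraries, with a summed level of 31224 to 36984 CPM in shControl and 24249 to 30865 CPM in shUHRF1 over 20 genes, of which 2 fell (Tubb3 and Gap43), while 4 were lower and 1 higher with the replicate number as a block in the fit. Of 20 fibroblast and meninges markers 15 were tested and 12 rose, and their sum was 100.3 to 122 CPM in shControl and 527 to 756 CPM in shUHRF1. Of 18 Schwann cell and satellite glia markers 15 were tested, 9 rose and 1 fell, with sums of 1934 to 2710 and 1113 to 2308 CPM. Of 16 macrophage markers 9 were tested and 5 rose (7.57 to 14.3 against 19.4 to 51.9 CPM), and of 12 endothelial and mural markers 7 were tested and 2 rose (43.7 to 46.4 against 41.3 to 59.2 CPM). Of 10 neural progenitor markers 2 were tested and both rose (569 to 667 against 692 to 962 CPM). Nearly all of that sum was Vim, which other cell types also express, at 603 and 852 CPM on average. Most of the glial, fibroblast and endothelial sums was likewise 1 gene. Ngfr averaged 1659 CPM of 2282 in shControl and 1348 of 1811 in shUHRF1 among glial markers. Ptn averaged 77.0 of 108 and 454 of 644 CPM among fibroblast markers. Egfl7 averaged 35.2 of 45.0 and 32.1 of 53.2 CPM among endothelial and mural markers. Many of these markers reached the low-count filter only through the shUHRF1 libraries, where they are high, and so had to differ to be tested. These were 7 of the tested glial, 5 of the fibroblast, 5 of the macrophage, 2 of the endothelial and mural and 1 of the progenitor markers, and the counts of rises are a description of them. Of all 15573 tested genes 11.6% rose and 12.4% fell by the same test, and 15.3% and 15.7% did with the block. Neurog2 had 0 reads in both groups, and Sox1 and Neurog1 had 0 in shControl. Pax6 had 21 reads in shControl and 8 in shUHRF1. The part of these cell types in the results below was not tested.

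Transcripts of the 58 genes were rare. Together they made up 0.0138% to 0.0199% of the TMM-scaled reads of a library. The 29 replication genes summed to 164, 151 and 153 CPM in shControl libraries 1 to 3 and to 114, 149 and 131 CPM in shUHRF1 libraries 1 to 3. The 29 mitosis genes summed to 34.5, 37.2 and 33.0 CPM in shControl and to 24.2, 33.0 and 28.3 CPM in shUHRF1. For both groups the highest shUHRF1 library lay just below the lowest shControl library, and the lowest was shUHRF1 1. That library held the lowest value of all 6 for 26 of the 58 genes, 13 in each group. It held the lowest value for 25.5% of all tested genes, a set that leaves out 3 of the replication and 11 of the mitosis genes for low counts. Replication genes outweighed mitosis genes in every library, and the ratio of the sums was 4.76, 4.06 and 4.63 in shControl and 4.72, 4.53 and 4.64 in shUHRF1, with overlapping ranges. In such bulk samples, fewer cells of a type and less RNA per cell cannot be told apart.

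**Figure D2:**
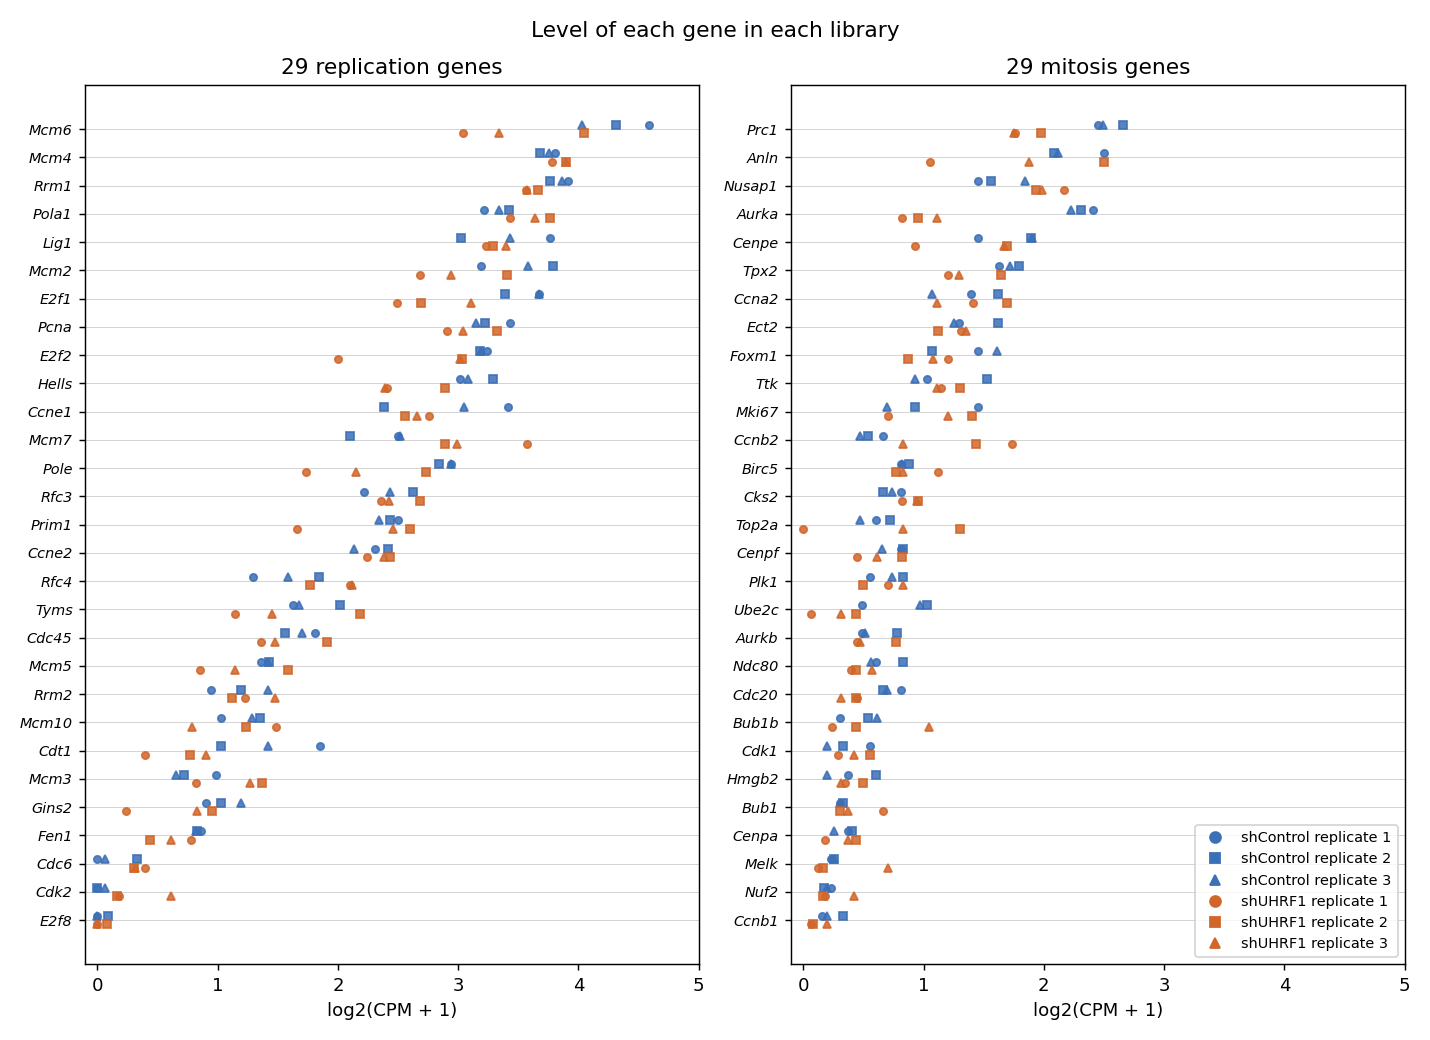
Level of each of the 58 genes in each of the 6 libraries, as log2(CPM + 1) on the horizontal axis, with shControl in blue, shUHRF1 in orange and the library number as the symbol shape. Most mitosis genes sit near 0 in both groups, and Aurka and Prc1 are lower in all 3 shUHRF1 libraries than in any shControl library.

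Of the 58 genes, 44 passed the filter on low counts (about 0.524 CPM or more in at least 3 libraries), 26 for replication and 18 for mitosis. With edgeR's quasi-likelihood test and Benjamini-Hochberg adjustment over all 15573 tested genes, 5 of the 44 were called at an adjusted p below 0.05. E2f1, Aurka and Prc1 fell, and Mcm7 and Ccnb2 rose. That is 11.4% of the tested members, against 24.0% of all tested genes (11.6% higher and 12.4% lower in shUHRF1). Libraries of the same number deviated alike, and with the replicate number as a block 8 of 44 were called, which is 18.2% against 31.0% of all tested genes. The added 3 were Mcm2, Mcm6 and Hells, all lower. This made 6 lower against a background of 15.7% and 2 higher against a background of 15.3%. The groups did not overlap in CPM for 15 of 44 members (34.1%), 10 lower and 5 higher in shUHRF1, against 44.0% of all tested genes. These 3 shares were below those of all tested genes. Without the low-count filter 9 of 58 members (15.5%) were called, against 13.9% of 31421 genes. No result particular to these genes can be read from such counts. With upper-quartile factors, which called the same number of members, 64.6% of the calls over all genes were higher in shUHRF1, against 48.4% with TMM factors. Calls also depended on the level. Levels here are means over all 6 libraries. Genes below 2 CPM were called in 15.6% of 3242 cases and members in 1 of 20. Genes at 2 to 16 CPM were called in 20.7% of 4367 cases and members in 4 of 24, while no tested member averaged 16 CPM or more.

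**Figure D3:**
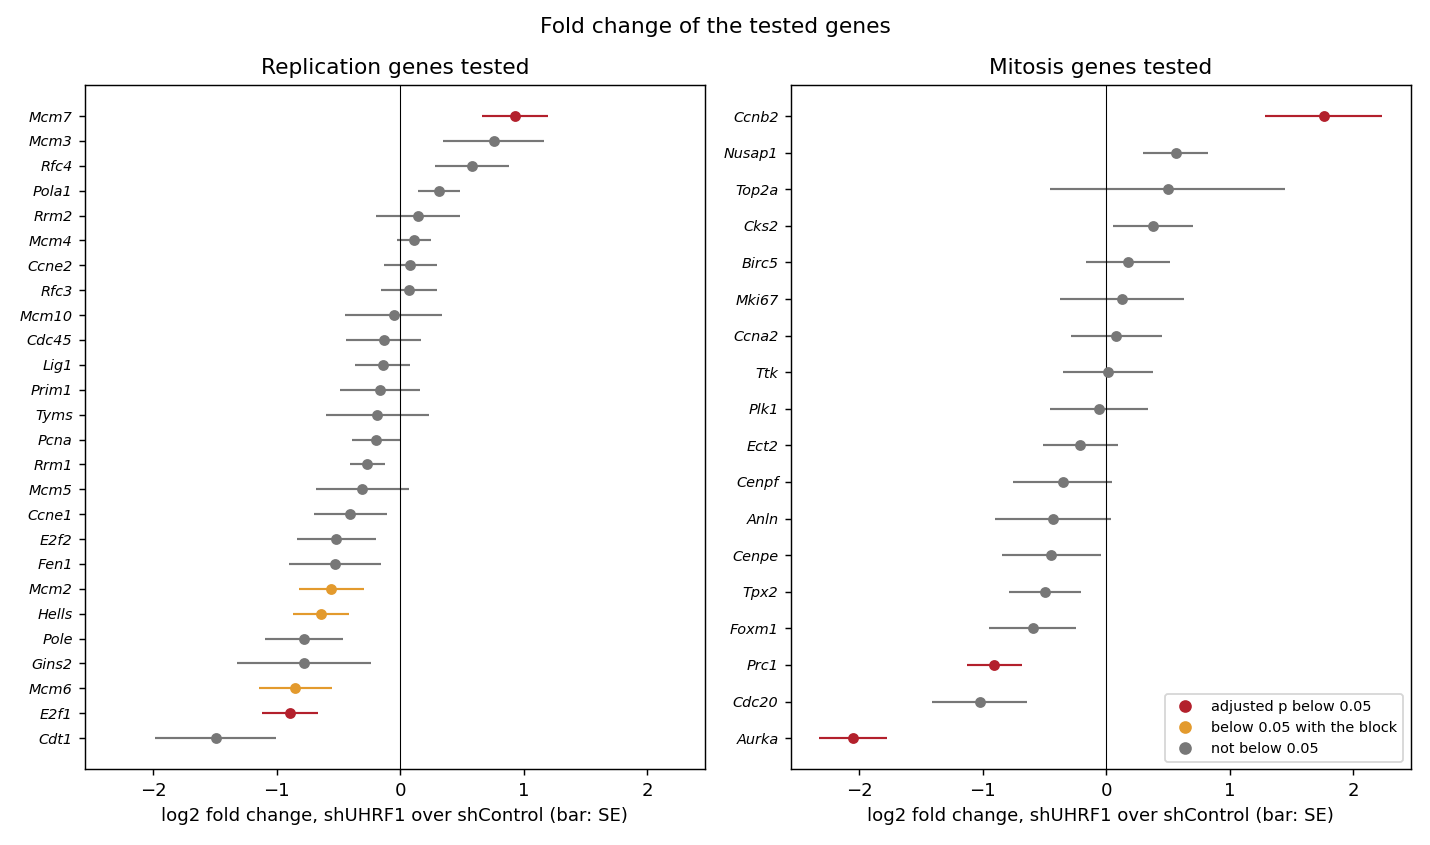
Log2 fold change of shUHRF1 over shControl (horizontal axis, bars are the standard error) for the 26 replication and 18 mitosis genes tested. Genes called without the replicate block are red, genes called with it but not without it are orange, and all others are grey. The called genes lie on both sides of 0 in both panels.

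Among the factors that start S phase, E2f1, a transcription factor that switches on replication genes, fell. E2f1 (chr2, 154559407 to 154569892, minus strand, GRCm38) was at 11.7, 9.45 and 11.7 CPM in shControl libraries 1 to 3 and at 4.63, 5.48 and 7.60 CPM in shUHRF1 libraries 1 to 3. All shUHRF1 values were below all shControl values, by a log2 fold change of -0.89 ± 0.23 (SE; edgeR adjusted p = 0.0255). The call was lost without shControl 1 (adjusted p = 0.0804), without shControl 3 (0.0917) and without shUHRF1 2 (0.0502). Its relative E2f2 was at 8.42, 8.09 and 8.13 CPM in shControl and at 3.01, 7.18 and 7.07 CPM in shUHRF1. The groups were apart, but shUHRF1 1 stood far below the other 2 and the gene was not called (log2 fold change -0.52 ± 0.32, adjusted p = 0.277). Ccne1 and Ccne2, the E cyclins that drive entry into S phase, had log2 fold changes of -0.40 and 0.08, with overlapping groups.

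Cdt1 loads the helicase onto origins. It was at 2.61, 1.04 and 1.67 CPM in shControl and at 0.314, 0.707 and 0.872 CPM in shUHRF1. The groups did not overlap, the log2 fold change was -1.50 ± 0.49, and the adjusted p was 0.0597. It was called by DESeq2 (adjusted p = 0.0484), without the low-count filter (0.0256), and without shControl 2 (0.0489).

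The Mcm2 to Mcm7 proteins form one ring, the replicative helicase, and their transcripts did not move as a block. Mcm7 (chr5, 138164583 to 138172422, minus strand) was at 4.65, 3.30 and 4.74 CPM in shControl and at 10.9, 6.42 and 6.93 CPM in shUHRF1. It was the only one of 26 tested replication genes called higher, and its groups did not overlap (log2 fold change 0.93 ± 0.27, edgeR adjusted p = 0.0403). The call was lost without shControl 1, 2 or 3 or shUHRF1 1 or 3, at adjusted p of 0.0925, 0.116, 0.0949, 0.0892 and 0.0709. Mcm7 shares 321 exonic bases with Ap4m1 on the opposite strand. As the strand setting of the counting is unknown, reads of the 2 genes cannot be told apart there, and Ap4m1 had a log2 fold change of 0.37 (adjusted p = 0.117, and 0.0431 with the replicate block).

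Mcm6 (chr1, 128331590 to 128359664, minus strand) had the highest mean CPM of all 58 genes. It was at 23.1, 18.9 and 15.4 CPM in shControl and at 7.23, 15.5 and 9.11 CPM in shUHRF1. The highest shUHRF1 value lay just above the lowest shControl value, and the other 2 shUHRF1 values lay well below. The log2 fold change was -0.85 ± 0.29 with an adjusted p of 0.0707, and 0.0393 with the replicate block. It was also called by DESeq2 (adjusted p = 0.0283), without the low-count filter (0.00948) and without shUHRF1 2 (log2 fold change -1.25, adjusted p = 0.00981). Mcm2 (chr6, 88883474 to 88898780, minus strand) was at 8.13, 12.8 and 10.95 CPM in shControl and at 5.43, 9.60 and 6.68 CPM in shUHRF1. The groups overlapped, while every shUHRF1 library was below the shControl library of its number, with log2 ratios of -0.54, -0.40 and -0.67. The adjusted p was 0.164, and 0.0353 with the replicate block. Mcm4 was at 13.0, 11.8 and 12.5 CPM in shControl and at 12.7, 13.9 and 13.9 CPM in shUHRF1. Its groups overlapped and its log2 fold change was 0.11 ± 0.14 (adjusted p = 0.602). Mcm3 and Mcm5, at 0.574 to 2.002 CPM over all libraries, had log2 fold changes of 0.76 and -0.31 and overlapping groups. Of the fits without and with the block, Mcm7 was called higher in both, Mcm6 and Mcm2 were called lower in the latter, and Mcm3, Mcm4 and Mcm5 were called in neither.

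Of the polymerases and the enzymes that finish and supply the new strands, none was called in the fits without and with the block. Pola1, the catalytic subunit of the priming polymerase, was at 8.30, 9.71 and 9.14 CPM in shControl and at 9.79, 12.6 and 11.4 CPM in shUHRF1. All shUHRF1 values were higher, by a log2 fold change of 0.32 ± 0.17 (adjusted p = 0.214). Pole, the leading-strand polymerase, was at 6.68, 6.15 and 6.70 CPM in shControl and at 2.34, 5.65 and 3.44 CPM in shUHRF1. All shUHRF1 values were lower (log2 fold change -0.78 ± 0.32, adjusted p = 0.110). Rrm1, the large subunit of ribonucleotide reductase, was at 14.1, 12.6 and 13.6 CPM in shControl and at 10.8, 11.7 and 10.9 CPM in shUHRF1. Its groups did not overlap either, with a smaller log2 fold change of -0.27 ± 0.14 (adjusted p = 0.209). Lig1, which seals the fragments of the lagging strand, was at 12.5, 7.12 and 9.76 CPM in shControl and at 8.40, 8.77 and 9.54 CPM in shUHRF1. The shUHRF1 values lay inside the shControl range (log2 fold change -0.14 ± 0.22, adjusted p = 0.692). Pcna, the sliding clamp, was at 9.76, 8.35 and 7.84 CPM in shControl and at 6.51, 9.01 and 7.22 CPM in shUHRF1, with overlapping groups.

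Hells, a chromatin remodeller that acts with the DNA methylation machinery, lies on chr19, 38930915 to 38971051, plus strand. It was at 7.08, 8.80 and 7.46 CPM in shControl and at 4.31, 6.42 and 4.26 CPM in shUHRF1. The groups did not overlap, and all 3 numbered pairs were lower in shUHRF1, with log2 ratios of -0.66, -0.43 and -0.74. The log2 fold change was -0.64 ± 0.23, with an adjusted p of 0.0766 and of 0.0312 with the replicate block. It was also called without shUHRF1 2 (adjusted p = 0.0252). The other 9 tested replication genes were not called in the fits without and with the block, with log2 fold changes from -0.78 (Gins2) to 0.58 (Rfc4). They were Mcm10, Cdc45 and Gins2, which activate the helicase, Prim1 of the primase, Rfc3 and Rfc4 of the clamp loader, the flap endonuclease Fen1, and Tyms and Rrm2, which make nucleotides. Of these, Fen1 alone had groups that did not overlap, at 0.765 to 0.813 CPM in shControl and 0.353 to 0.718 CPM in shUHRF1 (log2 fold change -0.53 ± 0.37).

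Of the mitosis genes, Aurka fell, with the largest log2 fold change in size among the 18 tested. Aurora A, its product, is a kinase of the centrosome and spindle poles. Aurka (chr2, 172356190 to 172370535, minus strand) was at 4.30, 3.95 and 3.68 CPM in shControl and at 0.763, 0.942 and 1.16 CPM in shUHRF1, from 74, 61 and 77 reads and from 17, 16 and 24 reads. Every shUHRF1 value was far below every shControl value, and the mean fell from 3.98 ± 0.308 to 0.956 ± 0.200 CPM (SD, n = 3). The log2 fold change was -2.05 ± 0.27 with an edgeR adjusted p of 0.00243. Of the 5 called members it was the only one still called without any single library, at adjusted p of 0.00446 to 0.0150.

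Prc1, which bundles the microtubules of the spindle midzone, fell as well. Prc1 (chr7, 80294450 to 80316259, plus strand) was at 4.47, 5.31 and 4.64 CPM in shControl and at 2.38, 2.94 and 2.37 CPM in shUHRF1. The groups were far apart for their spread, and the 3 pairs differed by nearly the same log2 ratio, -0.79, -0.75 and -0.84. The log2 fold change was -0.91 ± 0.22 (edgeR adjusted p = 0.0224). The call was lost without shControl 1, 2 or 3 or shUHRF1 3, at adjusted p of 0.0590, 0.0646, 0.0722 and 0.0784. Prc1 shares 911 exonic bases with Rccd1 on the opposite strand, whose log2 fold change was -0.19 (adjusted p = 0.482).

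Ccnb2, a B-type cyclin that activates Cdk1 at the entry into mitosis, went the other way. Ccnb2 (chr9, 70407692 to 70421547, minus strand) was at 0.581, 0.453 and 0.383 CPM in shControl and at 2.34, 1.71 and 0.775 CPM in shUHRF1, from 10, 7 and 8 reads and from 52, 29 and 16 reads. The groups did not overlap, but the 3 shUHRF1 values were spread widely (log2 fold change 1.76 ± 0.48, edgeR adjusted p = 0.0322). It passed the low-count filter through the shUHRF1 libraries, with 1 of 3 shControl libraries at the filter's level, so it had to differ to be tested. The call was lost without shControl 1, 2 or 3 or shUHRF1 1 or 2, at adjusted p of 0.0796, 0.0867, 0.124, 0.0886 and 0.0595. Aurka, Prc1 and Ccnb2 all hold TTTGAA and CCAAT in the windows shown above. They are among the 15 of 25 mitosis windows (60.0%) that hold both, against 6.57% of all windows. Mitosis genes that were not called, such as Mki67 and Top2a, hold both as well.

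**Figure D4:**
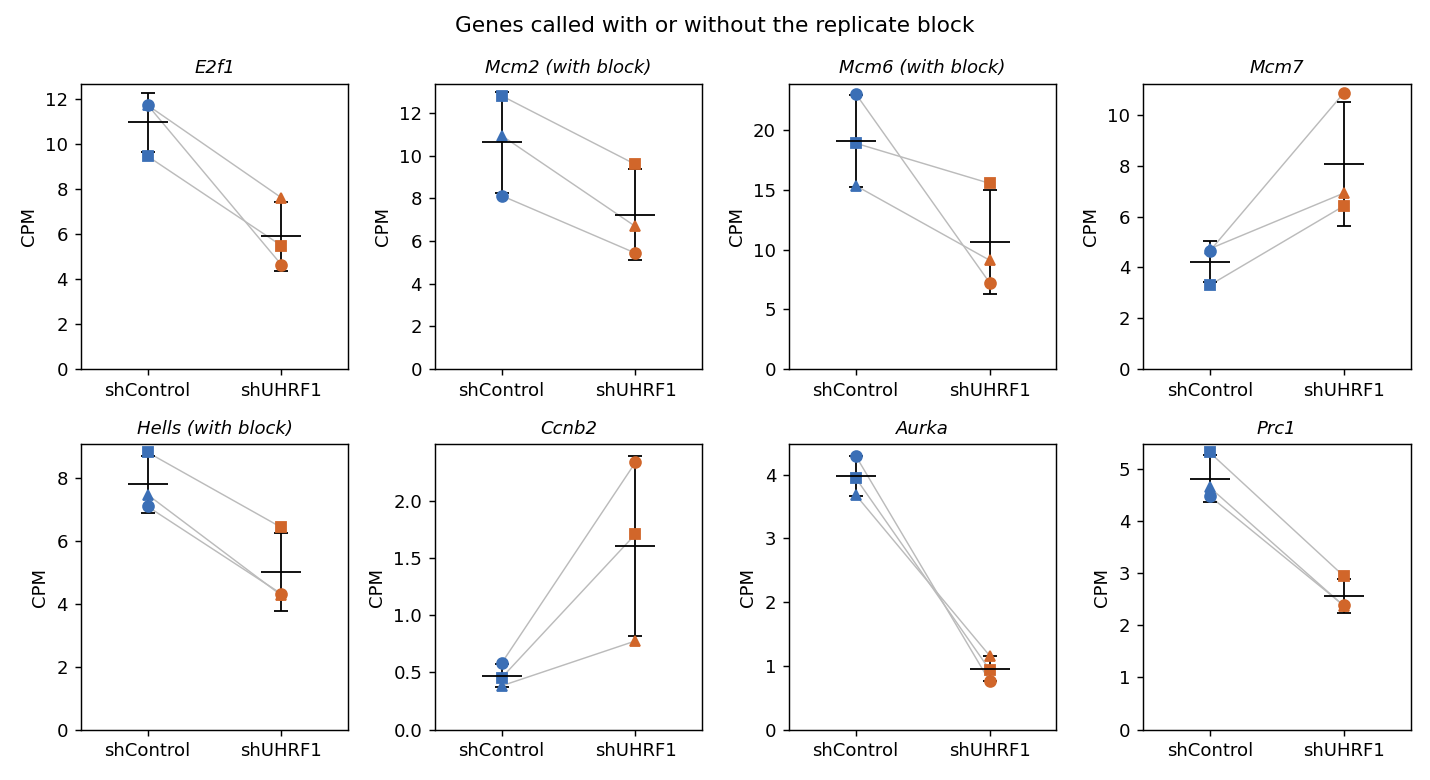
CPM in each library of the 8 genes called with or without the replicate block, each on its own axis from 0. Circles, squares and triangles are libraries 1, 2 and 3, grey lines join libraries of one number, and black bars are the mean ± SD of 3 libraries. All 8 genes go one way in all 3 pairs, Mcm7 and Ccnb2 up and the other 6 down.

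No other mitosis gene was called. Cdc20, which activates the anaphase-promoting complex, was at 0.755, 0.583 and 0.622 CPM in shControl and at 0.359, 0.353 and 0.242 CPM in shUHRF1. The groups did not overlap (log2 fold change -1.03 ± 0.38, adjusted p = 0.0891), and it passed the low-count filter through the shControl libraries only. Nusap1, a spindle-associated protein, was at 1.74, 1.94 and 2.58 CPM in shControl and at 3.50, 2.83 and 2.95 CPM in shUHRF1. All shUHRF1 values were higher (log2 fold change 0.56 ± 0.26, adjusted p = 0.163). Anln, a scaffold of the cleavage furrow, was at 4.65, 3.24 and 3.35 CPM in shControl and at 1.08, 4.65 and 2.66 CPM in shUHRF1. Its shUHRF1 values covered the shControl range (log2 fold change -0.43 ± 0.47, adjusted p = 0.552). Cenpe, a kinetochore motor, was at 1.74, 2.72 and 2.73 CPM in shControl and at 0.898, 2.24 and 2.18 CPM in shUHRF1, with overlapping groups and a log2 fold change of -0.44 ± 0.40. The standard markers of dividing cells were low and overlapped between the groups. Mki67 was at 1.74, 0.906 and 0.622 CPM in shControl and at 0.629, 1.65 and 1.31 CPM in shUHRF1. Top2a, the topoisomerase that untangles sister chromatids, was at 0.523, 0.647 and 0.383 CPM in shControl and at 0, 1.47 and 0.775 CPM in shUHRF1, where 0 reads allow up to 0.135 CPM at a limit of 3 reads for counting error. Their log2 fold changes of 0.13 ± 0.50 and 0.50 ± 0.95 have errors wide enough to hold a change in either direction. The other 9 tested mitosis genes had log2 fold changes between -0.59 (Foxm1) and 0.38 (Cks2). They were Ccna2, the cyclin of S phase and G2, the Cdk subunit Cks2, the transcription factor Foxm1, the kinases Plk1 and Ttk, Birc5 of the chromosomal passenger complex, the spindle factor Tpx2, the kinetochore protein Cenpf and Ect2, which acts at the cleavage furrow. Cks2 alone of these had groups that did not overlap, at 0.583 to 0.755 CPM in shControl and 0.763 to 0.942 CPM in shUHRF1.

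Not tested for lack of reads were 3 replication genes, Cdk2, E2f8 and Cdc6, with at most 11 reads in a library, and 11 mitosis genes, with at most 22. The latter were Hmgb2, Cdk1, Ccnb1, Melk, Aurkb, Bub1, Bub1b, Ube2c, Cenpa, Nuf2 and Ndc80. Cdk1, the kinase that drives mitosis, was at 0.465, 0.259 and 0.143 CPM in shControl and at 0.225, 0.471 and 0.339 CPM in shUHRF1, with overlapping groups. Differences in these genes were mostly not detectable at this depth. The 9 members called without the low-count filter were the 5 above, Cdk2 as higher, and Cdt1, Mcm6 and Ube2c as lower. Ube2c, a ubiquitin-conjugating enzyme that works with the anaphase-promoting complex, was at 0.407, 1.04 and 0.957 CPM in shControl and at 0.0449, 0.353 and 0.242 CPM in shUHRF1. It shares 592 exonic bases with Tnnc2 on the opposite strand.

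Set side by side, the replication genes were expressed above the mitosis genes, and their changes did not differ clearly. The mean over all 6 libraries was below 2 CPM for 10 of 29 replication and 24 of 29 mitosis genes, and the median gene was at 4.14 and 0.633 CPM. Per kilobase of exon, the highest replication genes in shControl were Mcm6 at 4.09, Pcna at 3.60, E2f1 at 3.48 and Mcm4 at 3.47 CPM per kb. The highest mitosis genes were Aurka at 1.57, Cks2 at 0.967 and Prc1 at 0.584 CPM per kb, with Mki67 at 0.108. Aurka, the highest mitosis gene on this scale in shControl, was at 0.378 CPM per kb in shUHRF1. Of tested replication genes 1 rose and 1 fell (7.69%), and with the block 1 was higher and 4 lower (19.2%). Of tested mitosis genes 1 rose and 2 fell (16.7%), also with the block. These shares were below those of all tested genes, 24.0% without and 31.0% with the block, in both groups. The log2 fold change was below 0 for 18 of 26 replication and 10 of 18 mitosis genes, against 48.6% of all tested genes. Its median was -0.19 for replication and -0.13 for mitosis genes, beside 0.02 for all tested genes. The median log2 ratio in pairs 1, 2 and 3 was -0.54, -0.03 and -0.26 for replication genes, with 20, 13 and 18 of 26 lower. For mitosis genes it was -0.42, -0.16 and 0.03. Without shUHRF1 1 the median log2 fold change was -0.10 for replication and -0.08 for mitosis genes, beside 0.01 for all tested genes. The size of these medians therefore depended on single libraries. The difference of the medians, replication minus mitosis, was -0.05, and in the 3 pairs it was -0.13, 0.13 and -0.30, so its sign varied. Among members that averaged 2 CPM or more it was 0.26. With upper-quartile factors the median over all tested genes moved from 0.02 to 0.14 and those of the 2 groups to -0.06 and -0.01, while their distance from all genes stayed at -0.21 and -0.15.

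The rest of the pathway was described with 4 further lists of 155 genes that are no members. Of 47 other replication genes 45 were tested, 4 rose and 3 fell (15.6%, against 24.0% of all tested genes), with a median log2 fold change of 0.00. Timeless, which protects stalled forks, was at 16.1, 9.71 and 15.8 CPM in shControl and at 45.0, 36.7 and 44.4 CPM in shUHRF1. Its groups were far apart, with a log2 fold change of 1.60 ± 0.21 (edgeR adjusted p = 0.00217). Prim2, a primase subunit, rose from 7.13 ± 1.11 to 16.4 ± 0.467 CPM, by 1.204 ± 0.169 on the log2 scale (adjusted p = 0.00291). Rpa1, the large subunit of the protein that coats single-stranded DNA, fell from 92.6 ± 15.8 to 45.9 ± 5.82 CPM, with a log2 fold change of -1.01 ± 0.16 (adjusted p = 0.00416). Of the 2 clamp loader subunits called, Rfc1 rose from 56.6 to 88.9 CPM and Rfc2 fell from 30.2 to 21.2 CPM. Dut, which removes dUTP, fell from 23.9 to 15.2 CPM, and Tk1, called as well and named after its values were seen, rose from 0.510 to 1.35 CPM and passed the low-count filter through the shUHRF1 libraries. Without shControl 3 the adjusted p was 0.0509 for Dut, 0.0588 for Rfc1 and 0.0721 for Rfc2, and without shControl 1 it was 0.0567 for Rfc2. With upper-quartile factors it was 0.0544 for Rfc2. The called genes of this list therefore moved in both directions, also within 1 complex.

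Of 56 other mitosis genes 45 were tested, 6 rose and 5 fell (24.4%, near the 24.0% of all tested genes), with a median log2 fold change of 0.00. With the replicate block 8 were higher and 6 lower (31.1%, against 31.0%), and with upper-quartile factors 9 and 2. Kif15, a spindle motor, rose from 0.789 ± 0.107 to 2.48 ± 0.478 CPM (log2 fold change 1.64 ± 0.30, edgeR adjusted p = 0.00782). Iqgap3 rose from 0.411 to 1.40 CPM (adjusted p = 0.00781) and passed the low-count filter through the shUHRF1 libraries only. Racgap1, part of the centralspindlin complex that positions the cleavage furrow, rose from 14.7 to 24.0 CPM. Zwint, a kinetochore protein, rose from 812 ± 39.6 to 1174 ± 60.8 CPM, a level far above that of any member. Cdc25b, a phosphatase that activates Cdk1, fell from 15.2 to 7.19 CPM, and Ncapd2, a condensin subunit, fell from 10.7 to 6.10 CPM. The other 5 called genes, named after their values were seen, were Smc2 and Nek2 (higher) and Plk4, Cenpt and Pttg1 (lower), of which Nek2 passed the filter through shUHRF1 and Pttg1 through shControl. Without shControl 3 the adjusted p was 0.0588 for Zwint, 0.0568 for Cdc25b and 0.0573 for Ncapd2. Without shControl 1 it was 0.0650 for Zwint and 0.0667 for Ncapd2, and without shUHRF1 3 it was 0.0543 and 0.0623.

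Of 37 cell cycle control genes 34 were tested, 5 rose and 3 fell (23.5%, near the 24.0% of all tested genes). With the replicate block 7 were higher and 5 lower, and with upper-quartile factors 8 were higher and 0 lower. The largest log2 fold change in all 4 lists was that of Cdk6, a kinase that works with D cyclins to pass the G1 checkpoint. Cdk6 was at 1.57, 0.906 and 1.82 CPM in shControl and at 25.3, 13.4 and 29.9 CPM in shUHRF1. Every shUHRF1 value was well above every shControl value, with a log2 fold change of 3.97 ± 0.38 (edgeR adjusted p = 0.000818), and it was called without any single library. It shares 368 exonic bases with the antisense gene Gm17590. Cdkn1c, an inhibitor of cyclin-dependent kinases, was at 0.407, 0.647 and 0.478 CPM in shControl and at 6.20, 2.47 and 2.52 CPM in shUHRF1. Its log2 fold change was 2.87 ± 0.48 (adjusted p = 0.00546), it was called without any single library, and 1 of 3 shControl libraries was at the level of the low-count filter. Tfdp2, a partner of E2F proteins, rose from 11.8 to 22.4 CPM and E2f5, a repressive E2F, from 6.10 to 11.4 CPM. Ccnd1, a D cyclin, rose from 2.31 to 4.52 CPM, and Lin54, the DREAM subunit that binds the cell cycle homology region, fell from 35.4 to 23.7 CPM (adjusted p = 0.0464 and 0.0280). E2f5 was not called without shControl 3 (adjusted p = 0.0546). Ccnd1 was not called without shControl 1, 2 or 3 or shUHRF1 2 or 3, at adjusted p of 0.108, 0.129, 0.124, 0.114 and 0.142. Lin54 was not called without shControl 1 or 3 or shUHRF1 2 or 3, at adjusted p of 0.0917, 0.0997, 0.0516 and 0.0789. The other called genes, E2f3 and Cks1b, were lower and were named after their values were seen.

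The last list held 15 genes of the anaphase-promoting complex, the ubiquitin ligase that ends mitosis and also acts in neurons, and all were tested. It includes Ube2s, a ubiquitin-conjugating enzyme that works with the complex and is not a subunit. Of these 1 rose and 4 fell (33.3%, against 24.0% of all tested genes), and with the replicate block 2 were higher and 4 lower (40%, against 31.0%). The median gene of this list was at 46.8 CPM, and of all tested genes at 16 CPM or more 29.2% were called without the block. Cdc27 was at 125, 127 and 121 CPM in shControl and at 38.0, 45.3 and 40.6 CPM in shUHRF1. The spread within each group was small beside the distance, with a log2 fold change of -1.59 ± 0.11 (edgeR adjusted p = 0.000337). Anapc11, the catalytic RING subunit, was at 75.5, 63.2 and 79.2 CPM in shControl and at 16.2, 23.3 and 23.4 CPM in shUHRF1. Its log2 fold change was -1.79 ± 0.17 (adjusted p = 0.000867), and both genes were called without any single library. Anapc16 rose from 50.3 to 73.8 CPM, Anapc5 fell from 417 to 291 CPM and Anapc2 from 46.0 to 32.5 CPM. Anapc16 was not called without shControl 1, 2 or 3 or shUHRF1 3, at adjusted p of 0.0612, 0.0504, 0.0796 and 0.0610, nor Anapc5 without the same libraries, at 0.0731, 0.0656, 0.0753 and 0.0516. Anapc2 was not called without shControl 1 or 3 or shUHRF1 1 or 3, at 0.0908, 0.130, 0.0759 and 0.102. With upper-quartile factors Anapc5 and Anapc2 were not called (adjusted p = 0.0686 and 0.0785). The median log2 fold change of the 15 was -0.04, so the falls of Cdc27 and Anapc11 were not shared by most genes of the list.

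**Figure D5:**
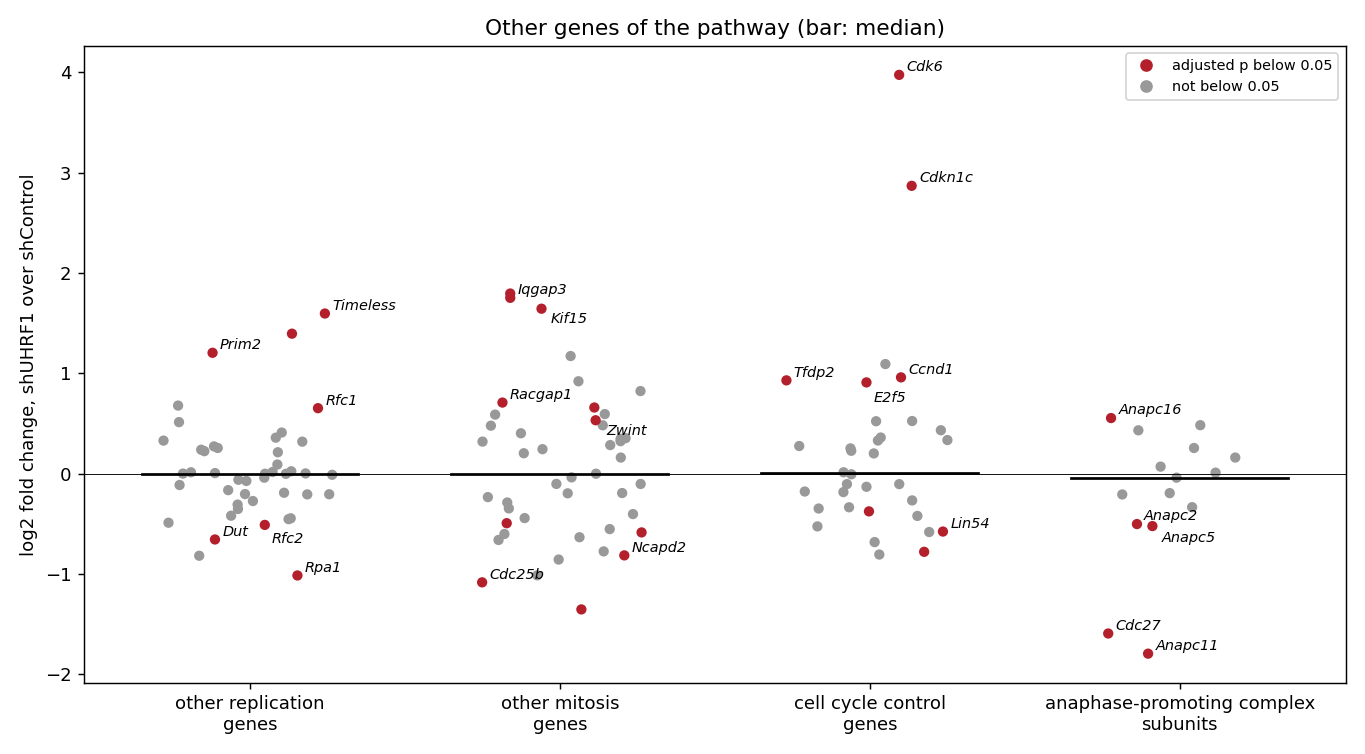
Log2 fold change of shUHRF1 over shControl (vertical axis) for each tested gene of the 4 further lists, with a black bar at the median of each list. Called genes are red, and the bars lie near 0 while Cdk6, at 3.97, and Anapc11, at -1.79, mark the ends of the scale.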

How the data were processed

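Total RNA of 6 libraries was depleted of ribosomal RNA and copied with a SMARTer kit, per the labels' protocols. The authors deposited whole-number read counts per gene, not normalized. The submitters' processing notes name FastQC, STAR, HTSeq, DESeq2 and the mm10 build, while the versions, the annotation and how strand was counted are not stated in the labels. The 5 summary lines were left out of library sizes: reads outside genes were 8.43% to 17.18% of entries, ambiguous reads 2.12% to 2.27% and reads not aligned uniquely 30.5% to 37.28%. Of 47643 identifiers 47224 matched GENCODE M21 on GRCm38 without version and 419 did not.

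Counts were fitted with edgeR 4.0.16 in R 4.3.3: filterByExpr, TMM factors and the 2-sided quasi-likelihood F test without a block, with Benjamini-Hochberg adjustment and a threshold of 0.05. CPM use TMM-scaled sizes, and standard errors come from the F statistic. The steps were tested on simulated data. Same-numbered libraries deviated from their group means together, with correlations of 0.326, 0.363 and 0.440 against -0.266 to -0.038 for other pairs, so the numbers were taken to pair libraries. This pairing comes from the data, as the labels do not state it, and the fit with the replicate block is given where it changes the call of a member or moves a list's count. Genes whose exons overlap a gene on the opposite strand are uncertain, as strand use is unknown. Beside those said in the text, this holds for Fen1 (1909 shared bases), Gins2 (2758), Ccnd1 (1100), Rfc2 (952), Cdkn1c (625), E2f8 (610), Ccne2 (609) and Ccna2 (510). At 298 bases or fewer it also holds for Nek2, Lig1, Cdc45, Nusap1, Plk1, Timeless, Cdc25b, Tk1, Pole, Cdc20, Cdk2, E2f5 and Cenpt.

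The rule for members uses no measured value, but members and lists were chosen with earlier results of these data known. Per-library values are given for members called in either fit, the 5 highest by CPM and the 4 with the smallest p in each group, and for called genes of the further lists, at most 6 by p. Values of Pole, E2f2, Pcna, Mki67, Top2a, Cdk1, Ube2c and other members outside this rule were added after they were seen. Alternatives were DESeq2 1.42.0, RLE and upper-quartile factors, 2 other filters, the replicate block, pairs 1 and 3 alone, members of at least 2 CPM, and each library left out. Promoter sequences are RefSeq's for GRCm38.p6, and pair ratios used a pseudocount of 0.5 CPM.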

Additional observations from a re-analysis of the deposited data

How the results depend on the processing

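The called members kept their direction in every alternative that tested them, and 5 of 5 calls were kept with DESeq2, with RLE and with upper-quartile factors, without the low-count filter and with the replicate block. Over all genes, DESeq2 called 4290 of 15573, upper-quartile factors 3890 of 15573, and the filter of 2 CPM in 3 libraries 3370 of 12387. Members called were 7 of 44, 5 of 44 and 4 of 25 in the same order. DESeq2 called 3 replication members lower and 8 control genes higher. With upper-quartile factors 2 other mitosis genes and 2 subunits of the anaphase-promoting complex were lower, and 8 control genes were higher and 0 lower. Without the low-count filter 2 replication members were higher and 3 lower. With at least 2 CPM in at least 3 libraries 0 mitosis members and 8 control genes were higher, and the replication minus mitosis median was 0.29. Over members of at least 2 CPM it was 0.26. With the replicate block 4 replication members and 5 control genes were lower and 2 genes of the anaphase-promoting list higher, and no other call of a named member changed.

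In library pairs 1 and 3 alone, 3071 of 15839 genes and 3 of 46 members were called. Of replication members 0 were higher and 2 lower, and of mitosis members 0 were higher and 1 lower. Lower as well were 2 other mitosis genes and 1 control gene. There the adjusted p was 0.0685 for E2f1, 0.0763 for Mcm7, 0.118 for Ccnb2 and 0.0587 for Prc1, and 0.0279 for Mcm6. The cause was not tested.

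Leaving out each library in turn gave 1768 to 3888 called genes, the lowest without shControl 3. Replication members higher ranged from 0 to 1 and lower from 0 to 3, and mitosis members from 0 to 1 and 1 to 2. Other replication genes ranged from 2 to 4 higher and 1 to 4 lower, and other mitosis genes from 3 to 8 and 0 to 3. Control genes ranged from 3 to 7 and 0 to 2, and genes of the anaphase-promoting list from 0 to 1 and 2 to 4. These fits hold fewer libraries. The replication minus mitosis median ranged from -0.26 to 0.09. Uhrf1 did not pass the filter, and with it kept its log2 fold change was -1.39, and -1.43 without any filter. Depth limits the mitosis members, of which 24 of 29 were below 2 CPM.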
